A study of Mus musculus with 2 samples.

Results

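Nascent transcription over microRNA loci was examined in mouse bone marrow-derived macrophages (BMDMs) by global run-on sequencing (GRO-seq), which labels and sequences RNA from polymerases that are already engaged on the DNA. The loci comprised every called transcript whose gene name began with Mir followed by a digit, or with Mirlet7. In the control library, 913 of 43122 transcripts carried such a name (2.12%), and in the IL-4 library 1139 of 51365 did (2.22%). These transcripts named 190 of 9827 genes in the control and 184 of 10106 genes after IL-4. In all, 211 microRNA genes were named in either library, of 11054 genes, and 163 in both, of 8879 genes. A further 27 were named in the control library only and 21 in the IL-4 library only. Among all genes these counts were 948 and 1227.

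The cells were wild-type (labelled Wt) and came from bone marrow of mice aged 8 to 12 weeks. They were differentiated for 6 days with L929 supernatant, the conditioned medium of a fibroblast line that supplies the macrophage growth factor MCSF. The control was left without cytokine and the other condition was given interleukin-4 (IL-4, 20 ng/ml), an inducer of alternative macrophage polarization, for 1 hr. Run-on reactions were done in duplicate and pooled into 1 library per condition, so every value below has n = 1. No difference could be set against a spread between replicates, and no test was possible.

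MicroRNAs are short RNAs that guide Argonaute proteins to target mRNAs. They are cut from a long primary transcript, first by Drosha and Dgcr8 to a hairpin and then by Dicer to the mature strand. A large share of hairpins lie within introns of other genes and are made from the same nascent RNA, while others have a transcription unit of their own. Bases 2 to 8 of the mature strand, the seed, largely set which mRNAs are recognised. GRO-seq reads transcription of the locus and not the mature microRNA. Within a host gene, transcription for the host and for the microRNA cannot be told apart.

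The mature sequences of the microRNAs on which the comparison turned are given first, 5′ to 3′, from RefSeq (GRCm38.p6), with the seed in capitals. The first 5 belong to loci that scored higher after IL-4, together with the strand of Mir500, whose transcripts were called only after IL-4.

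mmu-miR-511-3p: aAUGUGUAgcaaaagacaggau
mmu-miR-21a-5p: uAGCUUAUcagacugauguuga
mmu-miR-99a-5p: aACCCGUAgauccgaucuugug
mmu-miR-340-5p: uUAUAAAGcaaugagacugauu
mmu-miR-362-5p: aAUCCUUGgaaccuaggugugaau
mmu-miR-500-5p: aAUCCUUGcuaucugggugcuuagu

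The next 5 belong to loci that scored lower after IL-4, and the last to Mir142, a locus with transcripts over its hairpin in both libraries.

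mmu-miR-146a-5p: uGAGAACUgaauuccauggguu
mmu-let-7c-5p: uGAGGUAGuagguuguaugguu
mmu-miR-103-3p: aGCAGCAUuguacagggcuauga
mmu-miR-326-3p: cCUCUGGGcccuuccuccagu
mmu-miR-3971: cUCCCCACcccuguaccaguga
mmu-miR-142a-3p: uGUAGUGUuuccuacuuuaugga

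The hairpins of the 2 called-higher loci with the highest scores after IL-4 are shown whole, with the mature strands listed in RefSeq in capitals. Mir511 lies at chr2:14261003-14261081 on the plus strand, and Mir21, whose RefSeq symbol is Mir21a, at chr11:86584067-86584158 on the minus strand.

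Mir511 hairpin: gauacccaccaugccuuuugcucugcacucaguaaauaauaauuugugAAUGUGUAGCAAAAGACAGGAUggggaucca
Mir21a hairpin: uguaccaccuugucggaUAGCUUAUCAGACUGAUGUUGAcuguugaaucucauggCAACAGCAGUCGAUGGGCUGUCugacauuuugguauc

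Mature strands were found for 165 microRNA genes, in 269 sequences with 248 distinct seeds. A seed was shared by at least 2 of the genes in 13 cases, involving 27 genes. The largest such group had the let-7 seed GAGGUAG, with 8 genes. The 362-5p and 500-5p strands above share the seed AUCCUUG, and their hairpins lie in the same host gene, Clcn5.

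Each transcript carried a score, deposited to 1 decimal, and its annotation. The score's scaling to library size was not given in the sources used here, and read depth is unknown. The value of a microRNA gene was the highest score among the transcripts with its name. The median value was 0.5 in the control library and 0.3 in the IL-4 library, both for microRNA genes and for all genes. Log2 ratios of IL-4 over control were therefore centred on the median over all 8879 genes with both values, which was -0.38. A ratio of at least 2-fold (1 on the log2 scale) was called. The range of ratios that rounding to 1 decimal allows is given as the rounding range, which is not a replicate error.

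The markers of macrophages were called in both libraries for 9 of 9 genes, and none changed by 2-fold. Of 14 markers of other bone marrow cells, 4 had a transcript in the control and 4 after IL-4, and 2 of them, S100a8 and Cd79a, in both.

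The question of where microRNA-named transcripts lie was taken up first, since a name was given by the nearest annotated promoter at any distance. For 166 of the 211 genes the named start was the start of the RefSeq hairpin, within 2 bp, so the distance to the TSS was a distance to the hairpin and not to the start of a primary transcript. A RefSeq hairpin was matched for 6 more genes, but the transcripts were named from another position, and 39 genes had no matched hairpin. Of the 166 hairpins, 110 lay in a protein-coding host gene on the same strand and 23 in a noncoding host. By site, 88 lay in an intron of the host and 45 in an exon or across its edge. A further 11 lay only antisense to a gene and 22 between genes.

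The microRNA-named transcripts were mostly intronic. The intron share was 59.6% in the control (95% Wilson interval 56.4 to 62.7, 544 of 913) and 61.6% after IL-4 (58.8 to 64.4, 702 of 1139). Over all transcripts it was 64.3% and 65.2%. These intervals cover the counting of transcripts within a library only, and neighbouring transcripts are not independent.

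Intergenic transcripts formed a larger share of the microRNA-named set than of all transcripts. They were 19.1% in the control (16.6 to 21.7) and 18.1% after IL-4 (16.0 to 20.4), where all transcripts had 7.39% and 6.81%. The intervals did not reach the overall shares in either library. The TTS class was also larger, at 6.35% and 5.62% where all transcripts had 2.80% and 2.97%. Promoter-TSS transcripts were fewer, at 6.46% and 6.32% where all transcripts had 10.8% and 10.2%. Exonic shares were 4.60% and 5.0%, and 3′ UTR shares 3.83% and 3.34%.

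Distances to the named start were long. Their median absolute size was 13425 bp in the control (interquartile range 4356 to 31482 bp) and 15284 bp in the IL-4 library (4715 to 35613 bp). Over all transcripts the medians were 10239 and 10836 bp. Only 10.5% of microRNA-named transcripts in the control and 10.0% after IL-4 lay within 1 kb, where all transcripts had 22.4% and 21.6%. Within 10 kb the shares were 42.4% and 39.3%, and 49.5% and 48.3% for all transcripts. The farthest transcript, named for Mir466, lay 1293528 bp away in the control and 1293698 bp away after IL-4.

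**Figure D1:**
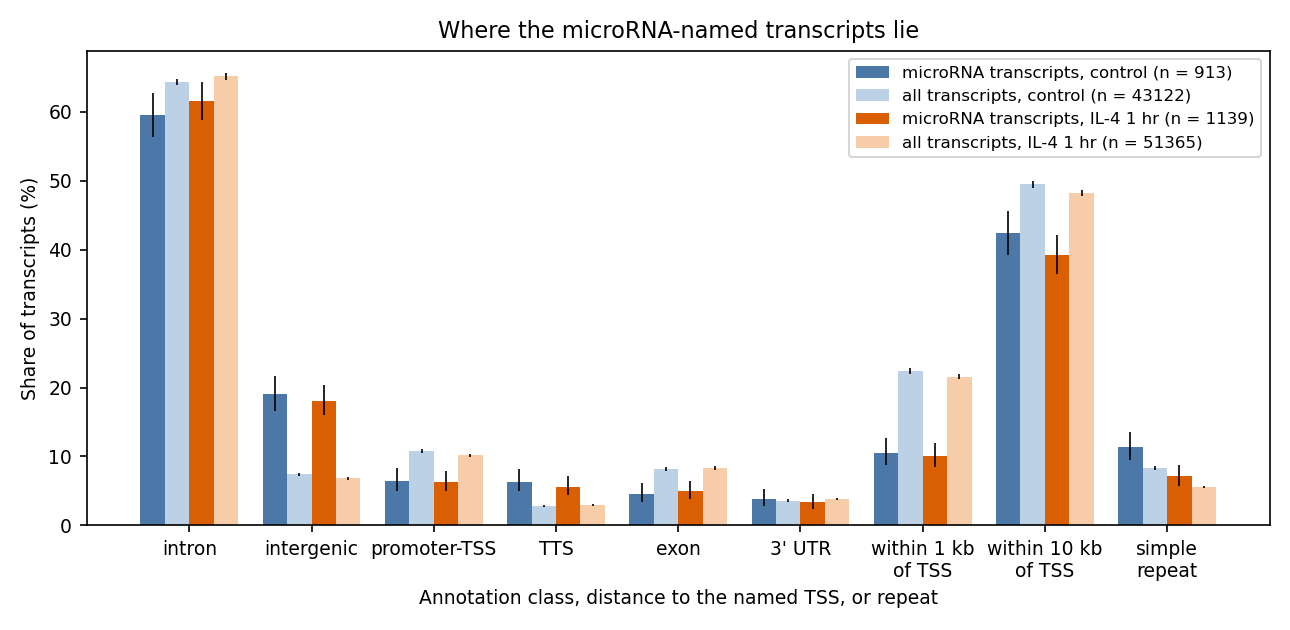
Share of transcripts (%) in each annotation class, within 1 or 10 kb of the named transcription start site (TSS), and in a simple repeat, for microRNA-named and all transcripts of each library. Bars start at 0 and error bars are 95% Wilson intervals over transcripts. The intergenic bars of the microRNA-named transcripts stand at 19.1% and 18.1%, above 7.39% and 6.81% for all transcripts, and the bars within 1 kb at 10.5% and 10.0%, below 22.4% and 21.6%.

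Transcripts followed the strand of the hairpin more often than not. Of those named from a placed hairpin, 616 of 720 in the control (85.6%) and 836 of 940 after IL-4 (88.9%) lay on its strand. Of these, 293 lay upstream, 31 over the hairpin and 292 downstream in the control, and 423, 40 and 373 after IL-4. Called transcripts were longer after IL-4. Their median length was 231 bp in the control and 319 bp after IL-4, and 227 and 312 bp for all transcripts. Cover of a hairpin only after IL-4 is therefore not by itself a gain at that locus. Transcripts inside a same-strand host gene made up 455 of 913 in the control (49.8%) and 639 of 1139 after IL-4 (56.1%). Repeats were named for 29.7% and 27.4%, against 28.1% and 26.0% of all transcripts, and simple repeats alone for 11.4% and 7.11%, against 8.36% and 5.55%.

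The comparison of IL-4 with control then asked which microRNA loci gained or lost nascent transcription within 1 hr. Mir511, in an intron of the mannose receptor gene Mrc1, and Mir21 scored higher after IL-4, as did Mir99a and the Clcn5 cluster. Mir146, which encodes the inflammation-linked miR-146a, scored lower, as did Mir3971, Mir326 and Mirlet7c-1. In all, 13 of 163 microRNA genes (7.98%) were at least 2-fold higher, where 8.06% of all genes were. At least 2-fold lower were 19 (11.7%), where 8.62% of all genes were. The share of higher loci was close to the background, and that of lower loci somewhat above it. The median centred ratio of the microRNA genes was -0.04 (quartiles -0.62 and 0.38), with 80 above and 83 below the centre.

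Calls that held over the whole rounding range numbered 11 higher (6.75%, background 3.67%) and 10 lower (6.13%, background 3.85%). In both directions these shares were above those of all genes. Where the highest-scoring transcripts of both libraries overlapped on the same strand, which was so for 102 of the 163, 8 were higher (7.84%, background 7.60%) and 7 lower (6.86%, background 6.30%). There, the longest of any transcripts tied for the highest score was taken. With any tied transcript allowed, 119 overlapped, of which 9 were higher (7.56%, background 7.42%) and 10 lower (8.40%, background 6.63%). Without centring, 12 were higher (7.36%, 5.98% of all genes) and 48 lower (29.4%, 24.3% of all genes), so that 20.0% of calls were higher instead of 40.6%. With the scores of each gene summed, 30 were higher (18.4%, 13.6% of all genes) and 25 lower (15.3%, 13.7% of all genes), or 54.5% higher.

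**Figure D2:**
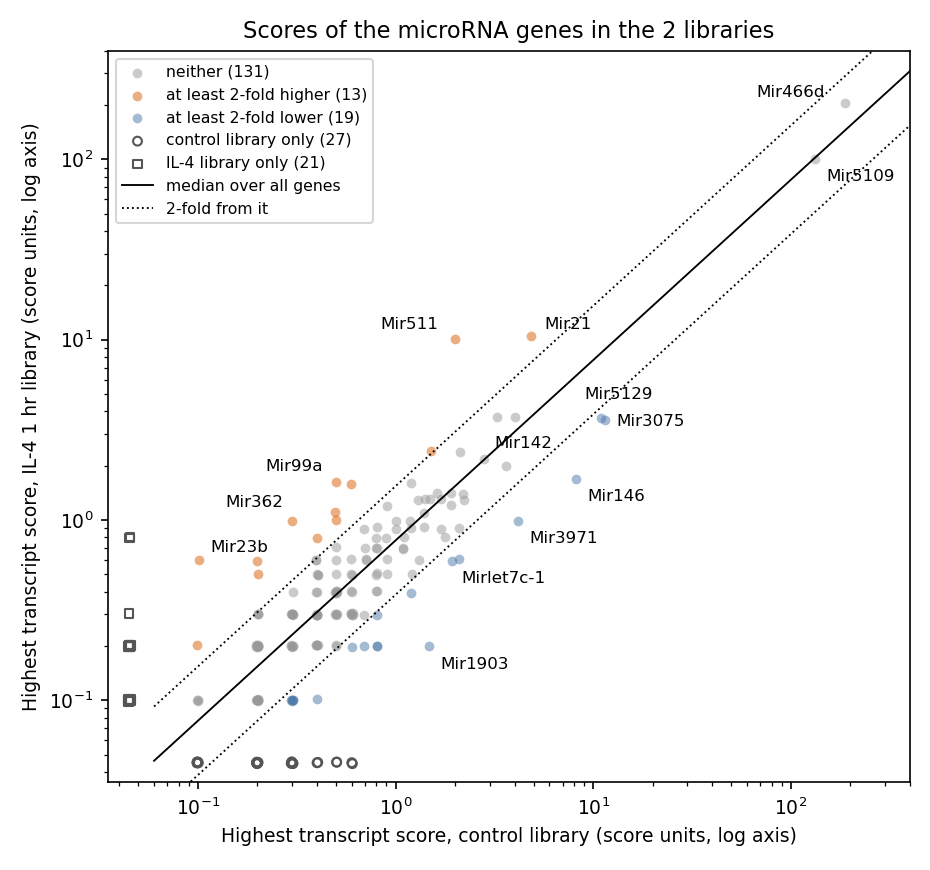
Highest transcript score of each microRNA gene in the control (x) and the IL-4 1 hr library (y), both on log axes and shifted very slightly at random, with darker points where genes share values and 1 library per condition. The 13 higher genes lie above the upper dotted line and the 19 lower genes below the lower one. Open symbols beside the axes are the 27 genes named only in the control and the 21 named only after IL-4.

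Mir511 had the most extensive difference. Its highest score was 2.0 in the control and 10.0 in the IL-4 library (centred ratio 2.70, rounding range 2.66 to 2.74). Both values came from the same segment in intron 7 of Mrc1, 6200 bp from the hairpin start in the control and 6326 bp after IL-4. The number of transcripts with the name was 16 in the control and 71 after IL-4, and their summed score 7.5 and 59.2. All 16 overlapping pairs of transcripts were at least 2-fold higher after IL-4, between 1.25 and 3.29. Over the hairpin itself a transcript was called only after IL-4, at 0.6. Transcripts named for Mrc1, a marker gene of alternative polarization, reached 2.7 in the control and 13.1 after IL-4, a ratio of 2.66. The ratios of the host and the microRNA were thus nearly equal. Measured by the transcript nearest the hairpin start, the ratio was 0.58, which is under the threshold. That measure set a control transcript downstream, at 0.4, against the IL-4 transcript over the hairpin, which did not overlap it.

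Mir21 gives rise to miR-21a, which is abundant in macrophages. Its highest score was 4.9 in the control and 10.6 after IL-4 (1.49, range 1.47 to 1.51). The segment lay 2409 bp from the hairpin start in the control and 2406 bp after IL-4. It was annotated to exon 11 of Vmp1, the gene at whose 3′ end the hairpin sits. A transcript covered the hairpin only after IL-4, at 1.2. Of 18 overlapping pairs, 10 were at least 2-fold higher, 17 were above the centre and 1 was below, at -0.62. The overlapping segments farther upstream in Vmp1 varied. At 86596055 to 86596188 on chromosome 11 the scores were 0.5 and 0.4 (0.06), and at 86599149 to 86599345 they were 2.1 and 1.8 (0.16). At 86601287 to 86601443 they were 1.1 and 2.0 (1.24), past 2-fold. Transcripts named for Vmp1 reached 0.4 and 0.3 (-0.04). Most transcripts within Vmp1 carried the name Mir21, 10 of 11 in the control and 12 of 14 after IL-4. The value by the host's own name leaves these out.

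Mir99a and Mirlet7c-1 lie in introns of the same noncoding host, Mir99ahg, on chromosome 16, and differed in opposite directions. Mir99a reached 0.5 in the control and 1.6 after IL-4 (2.06, range 1.87 to 2.25), in intron 4 of the host, 89422 bp and 89330 bp from the hairpin start. Its transcripts numbered 9 and 41. The host, listed in the files as 2810055G20Rik, reached 1.9 and 6.7 (2.20). Of the 9 overlapping pairs named for Mir99a, 4 were at least 2-fold higher and 1 was lower, with 3 below the centre and a median of 0.38. The 4 higher pairs were the farthest upstream, and the 5 nearest the hairpin ranged from -1.21 to 0.38.

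Mirlet7c-1 reached 1.9 in the control and 0.6 after IL-4 (-1.28, range -1.45 to -1.13). That segment lay 16023 bp from the hairpin start in the control and 15964 bp after IL-4. The files class it as intergenic, although it falls within the GENCODE M21 span of Mir99ahg. Over the hairpin of Mirlet7c-1 a transcript was called only after IL-4, at 0.1. Mir125b-2, whose highest-scoring control transcript lay farther along that span, reached 0.6 and 0.4 (-0.21). The opposite ratios of Mir99a and Mirlet7c-1 thus came from different segments. With scores summed, the ratio of Mirlet7c-1 was -0.76, under the threshold. By the transcript nearest the hairpin start, Mir99a had a ratio of -2.0, the reverse of its ratio by highest score. That ratio set different segments against each other, at 0.4 in the control and 0.1 after IL-4. The IL-4 transcript overlapped none named for Mir99a in the control. The segment of the control transcript scored 0.4 in both libraries. With transcripts within 10 kb only, the ratio of Mir99a was 0.26.

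**Figure D3:**
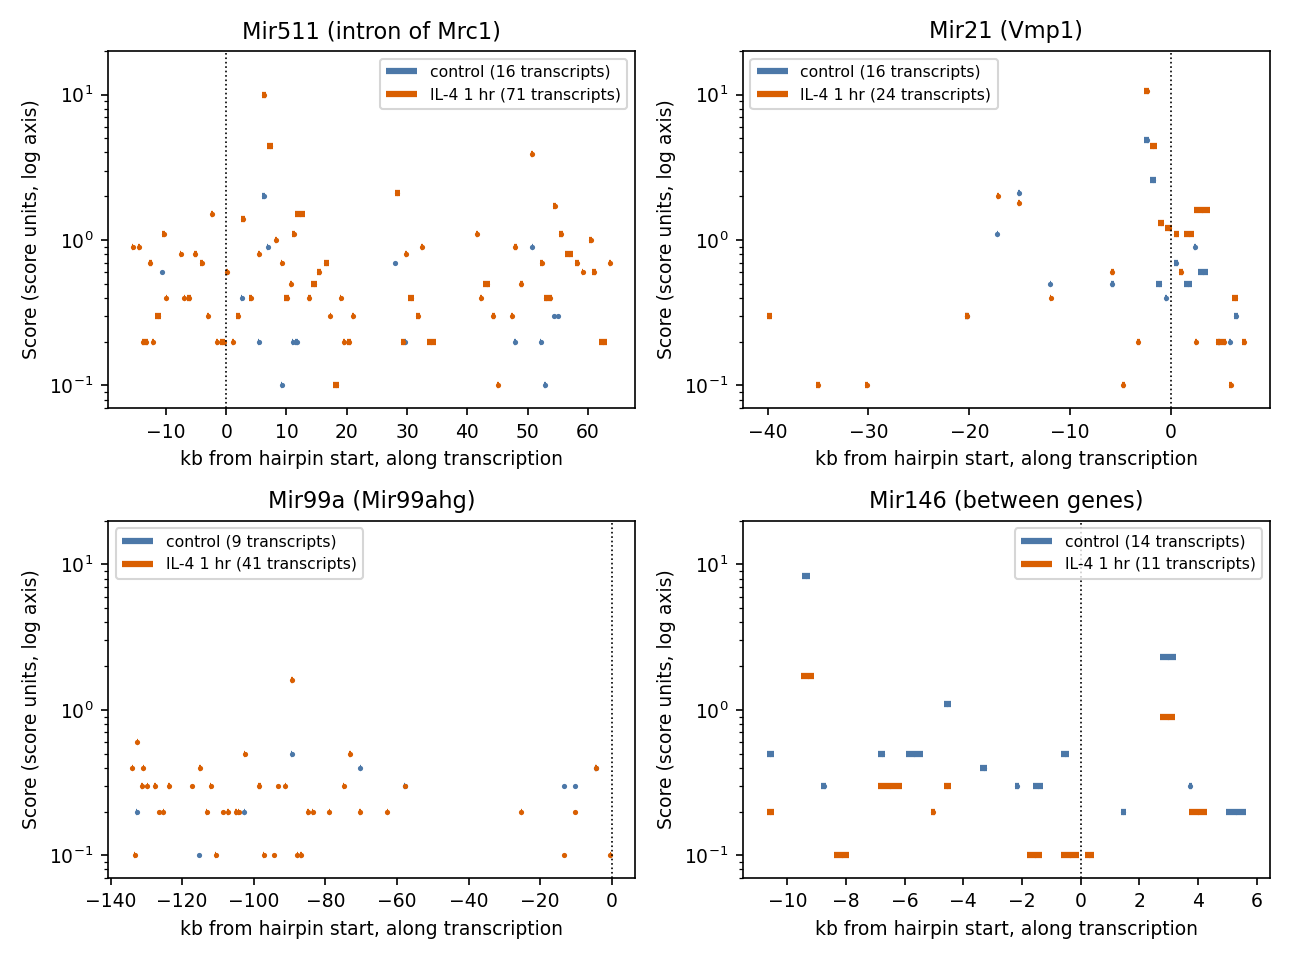
Scores (log axis) of the transcripts named for Mir511, Mir21, Mir99a and Mir146 against their distance in kb from the hairpin start (dotted line), along the direction of transcription, in each library. Line lengths show transcript lengths. Mir511 has 16 transcripts in the control and 71 after IL-4, and Mir146 reaches 8.3 in the control and 1.7 after IL-4 at about the same distance.

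The Clcn5 host on chromosome X holds Mir362, Mir500 and Mir532, so their values are not independent. Mir362 reached 0.3 in the control and 1.0 after IL-4 (2.12, range 1.82 to 2.45), in a promoter-class segment 607 bp and 580 bp from the hairpin start. Mir532 reached 0.2 and 0.5 (1.70), with 1 transcript in the control and 16 after IL-4. Its highest-scoring segments in the libraries did not overlap. The only overlapping pair scored 0.2 and 0.3 (0.96), under the threshold. Mir500 had no transcript in the control and 4 after IL-4, up to 0.8. Over the hairpins of Mir362 and Mir532 a transcript was called only after IL-4, at 0.1 and 0.2. Transcripts named for Clcn5, which encodes a chloride transporter, reached 0.4 and 0.9 (1.55), and 9 transcripts lay within the gene in the control and 72 after IL-4. All 3 loci and their host scored higher after IL-4 or were called only there. By the nearest transcript, Mir362 was reversed at -1.58 and Mir532 stood at 0. Both ratios set a control transcript upstream, at 0.3 and 0.2, against the IL-4 transcript over the hairpin, which did not overlap it.

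Mir23b had the highest ratio of all, with 0.1 in the control and 0.6 after IL-4 (2.96, range 2.25 to 4.08). The control value is the lowest that the files list and was shared by 2 transcripts, of which 1 overlapped the highest-scoring IL-4 transcript. That IL-4 transcript lay 1199 bp from the hairpin start. The host, 2010111I01Rik, reached 1.1 and 0.9 (0.09). Its neighbour Mir27b had a transcript only in the control, at 0.1. Over the hairpin of Mir23b a transcript was called only after IL-4, at 0.3. Mir3074-1, from the opposite strand of that cluster, reached 0.4 and 0.8 (1.38), and its highest-scoring control transcript lay on the strand of Mir23b. Mir23a, from the paralogous cluster on chromosome 8, reached 1.1 and 0.8 (-0.08) and its neighbour Mir24-2 was called in the control only, at 0.5.

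The remaining higher calls are given next. Mir340, in an intron of the host Rnf130, reached 0.5 and 1.1 (1.52), while transcripts named for Rnf130 had 0.2 and 0.3 (0.96). The Mir340 segments of the libraries did not overlap, and by the nearest transcript the ratio was 0. Mir339 reached 0.5 and 1.0 (1.38), both in intron 2 of 3110082I17Rik, whose own values were 1.2 and 0.5 (-0.88). Mir1957 had 1 intergenic transcript per library, at 0.6 and 1.6 (1.79), 44009 bp and 44010 bp from the named start. Mir1901 reached 0.2 and 0.6 (1.96) in a simple repeat within intron 3 of Cables1, 58495 bp and 58595 bp away. Mir1956, in an intron of the translation factor gene Eif4e, reached 1.5 and 2.4 (1.06), and Mir1904 0.1 and 0.2 (1.38), and the rounding ranges of both crossed the threshold.

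Among the lower loci, Mir146 had a control score below those of Mir3075 and Mir5129 only. It lies between genes at chr11:43374397-43374461 on the minus strand, and miR-146a is known as a brake on Toll-like receptor signalling. Its highest score was 8.3 in the control and 1.7 after IL-4 (-1.91, range -1.96 to -1.86). The segment lay in a simple repeat, 9366 bp and 9296 bp from the hairpin start. With transcripts in repeats left out, the ratio was -0.42, the same direction but under the threshold. The transcripts numbered 14 and 11, with summed scores of 15.7 and 4.2. All 8 overlapping pairs were below the centre, between -1.94 and -0.21, and 4 of them were at least 2-fold lower. A segment downstream, at 43371197 to 43371771, scored 2.3 in the control and 0.9 after IL-4.

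Mir3971, in an intron of the amino acid transporter gene Slc43a2, reached 4.2 in the control and 1.0 after IL-4 (-1.69, range -1.78 to -1.60). The segment was in intron 9, 13811 bp and 13934 bp from the hairpin start. All 16 overlapping pairs were below the centre, and 8 were at least 2-fold lower. The host reached 1.9 and 0.6 (-1.28). Over the hairpin the scores were 0.4 and 0.2 (-0.62).

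Mir326 lies in an intron of Arrb1, which encodes beta-arrestin 1. It reached 0.7 and 0.2 (-1.43, range -1.94 to -1.0), with 21 transcripts in the control and 7 after IL-4. The host reached 2.8 and 0.7 (-1.62). Mir3075, in intron 3 of the transcriptional coregulator gene Zmiz1, reached 11.3 and 3.6 (-1.27, range -1.30 to -1.25) in a simple repeat 17816 bp from the hairpin start in the control. The host Zmiz1 reached 3.8 and 0.8 (-1.87). At these 2 loci and at Mir3971, host and microRNA were lower together.

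Mir1903 reached 1.5 in the control, in a simple repeat within intron 6 of the neuropilin gene Nrp1, 87835 bp from the named start, and 0.2 after IL-4, 148 bp away (-2.53). It had 30 transcripts in the control and 1 after IL-4. Mir5129, at the edge of an exon of the transcription factor gene Zeb2, reached 11 and 3.7 (-1.19) in exon 10, 34482 bp and 34537 bp from the hairpin start. Of its 49 overlapping pairs, however, 34 were above the centre and 15 below, and by summed scores (51.8 and 43.1) the ratio was 0.02. Only its highest-scoring segment was at least 2-fold lower, 1 of the 49 pairs, while 5 pairs were at least 2-fold higher.

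Mir103-2, in an intron of Pank2, the gene for a pantothenate kinase, reached 0.8 and 0.2 (-1.62) in segments that did not overlap, while Pank2 itself reached 0.9 and 0.7 (0.02). By the nearest transcript its ratio was 1.00, the reverse. Mir30b had an intergenic segment 14880 bp and 14890 bp away, at 2.1 and 0.6 (-1.43), and was also reversed by the nearest transcript, at 1.58. Mir325 reached 0.8 and 0.2 (-1.62) with 11 transcripts in the control and 1 after IL-4, named from a position other than its RefSeq hairpin. The remaining 9 lower calls, Mir546, Mir684-1, Mir5119, Mir499, Mir29a, Mir26a-2, Mir140, Mir877 and Mir3061, had rounding ranges that crossed the threshold.

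**Figure D4:**
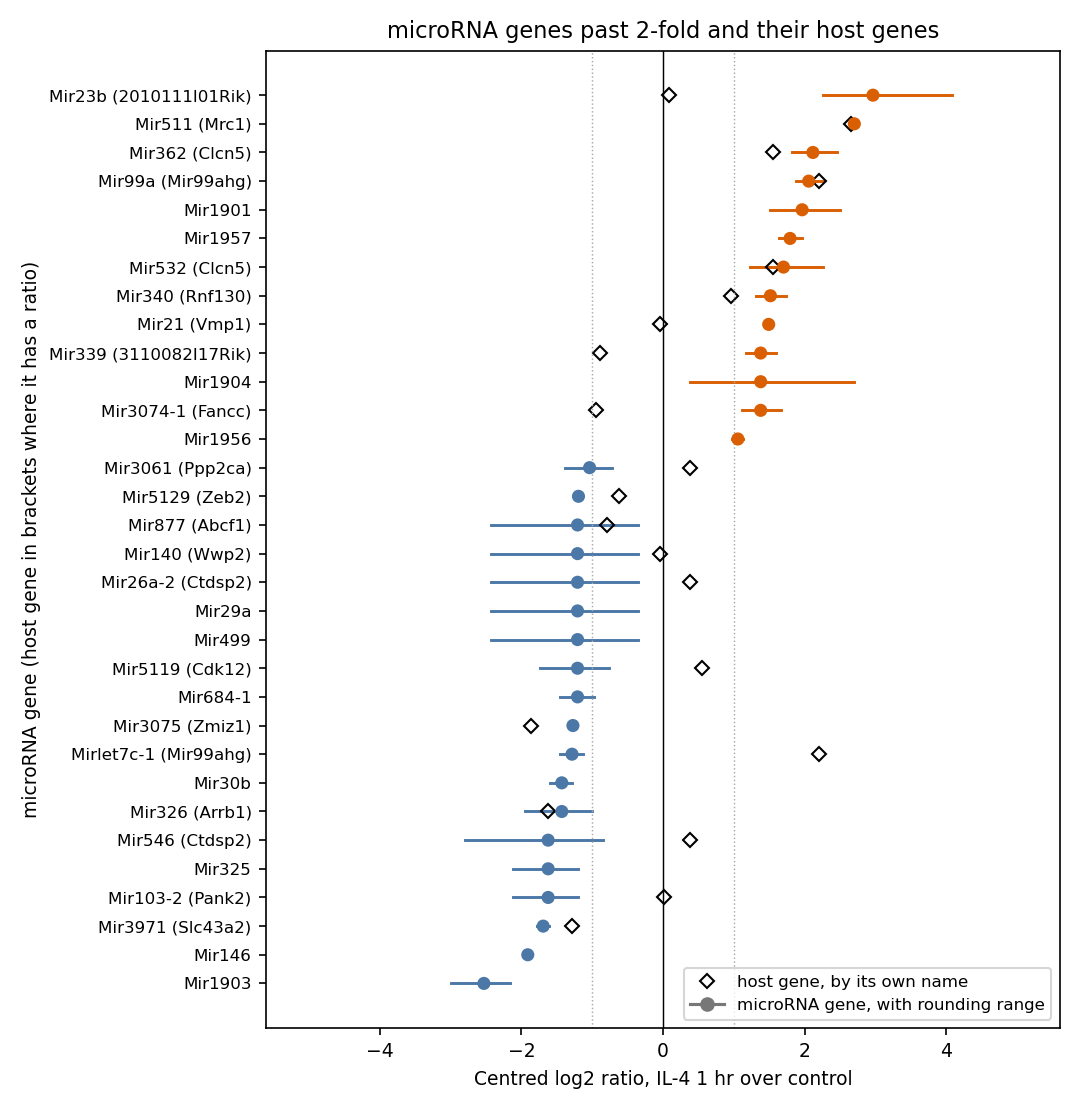
Centred log2 ratio of IL-4 1 hr over control for the 32 microRNA genes past 2-fold (dots), with the rounding range as a line, and for the host gene by its own name (open diamonds) where it has a ratio, with 1 library per condition. Mir511 lies on its host Mrc1 at 2.70 and 2.66, while Mirlet7c-1 at -1.28 lies opposite its host Mir99ahg at 2.20.

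Over all loci, 77 microRNA genes had a ratio both by their own name and for their host. Of these, 21 were past 2-fold, where 8.06% of all genes were higher and 8.62% lower. By its own name, the host was past 2-fold in the same direction in 7 of the 21 cases. It was past 2-fold in the other direction in 1 case (Mirlet7c-1) and within 2-fold in 13. The 7 were Mir511, Mir362, Mir532 and Mir99a, all higher, and Mir3075, Mir326 and Mir3971, all lower. Host and member transcripts lie on the same nascent RNA, so these are not independent measurements. The value by name also leaves out host transcripts named for the microRNA, so a host within 2-fold by name need not be unchanged. With every transcript inside the host counted, Vmp1 (1.49) and Rnf130 (1.52) were past 2-fold higher. Ppp2ca, the host of Mir3061, was past 2-fold lower (-1.04), with a rounding range that crossed the threshold. The highest scores in these hosts were those of Mir21, Mir340 and Mir3061. By the same measure, 2010111I01Rik (0.84) and Pank2 (0.02) stayed within 2-fold. Of the 122 hosts, 10 held at least 2 of the microRNA genes.

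Transcripts over the hairpin itself allow a reading that does not depend on distance. A called transcript overlapped the hairpin on its strand in both libraries for 23 microRNA genes and in either for 48. Cover only after IL-4 also occurred at loci called lower, namely Mir546, Mir26a-2 and Mirlet7c-1. Mir140, also called lower, was covered only in the control. Among the 23 covered in both libraries, the median centred ratio was 0.38, with 1 gene at least 2-fold higher and 1 lower. The lower one was Mir23a, at 0.8 and 0.3 (-1.04). The centre of -0.38 came from the highest scores of all genes and not from hairpin scores. A median of 0.38 thus means equal raw scores in the libraries and not a rise. No share over all features was computed for hairpin scores. Mir142, a haematopoietic microRNA, scored 2.5 and 1.5 over its hairpin (-0.36) and reached 2.8 and 2.2 just upstream (0.03). The IL-4 transcript over the Mir142 hairpin was longer and also spanned another control transcript downstream, at 1.0 (0.96). The extents compared there thus differed. Mir5130, in an exon of Kctd12, scored 3.6 and 2.0 (-0.47), and Mir22 0.3 and 0.4 (0.79). Of all 1005 RefSeq hairpins, whatever the transcript's name, 75 (7.46%) were overlapped in the control and 85 (8.46%) after IL-4.

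Mir466d and Mir5109 scored far above all other microRNA genes. Mir466d had 185.8 in the control and 205.4 after IL-4 (0.52), in a promoter-class segment 179 bp and 192 bp from the named start. Mir5109 had 134.6 and 101.0 (-0.04) in a segment of 53 bp in the control and 119 bp after IL-4, 68 bp and 43 bp away. No RefSeq hairpin was matched to either. The next highest values were 11.3 in the control and 10.6 after IL-4. Mir466d belongs to a family with near-identical copies, and how reads shared between copies were placed is not given in the sources used here. Mir1932 followed a simple repeat 31816 bp from its hairpin start, at 3.3 and 3.7 (0.54), with 44 transcripts in the control and 57 after IL-4.

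Among the genes named in the control only, Mir1942 and Mir687 (in Rb1) scored 0.6, Mir223 and Mir24-2 0.5, and Mir1933 0.4. Mir223, a myeloid microRNA, had 5 transcripts in the control, with a summed score of 1.7, and none with its name after IL-4. Transcripts named for its host F630028O10Rik reached 0.2 and 0.4 (1.38), the opposite direction, and none of the IL-4 transcripts lay within the host on its strand. Among those named only after IL-4, Mir500 and Mir582 (in Pde4d) scored 0.8, Mir875 0.3, and Mir1187 and Mir150 0.2. The files list called transcripts only, so a missing name does not show absence of transcription.

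By function, a list of 39 myeloid and inflammatory microRNAs had 17 genes with a transcript in the control, 14 after IL-4 and 13 in both. Of the 13, Mir21 and Mir23b were higher and Mir146 and Mir29a lower, with a median of -0.21. The shares of all genes were 8.06% higher and 8.62% lower. Mir29a had only 0.3 and 0.1 (-1.21). Not past 2-fold were Mir142, Mir22, Mir125b-2, Mir23a, Mir181a-1, Mir181b-1, Mir181b-2, Mir29b-1 and Mir34a. Mir181a-1 reached 1.2 and 1.6 (0.79), in simple repeats 16014 bp and 31924 bp away. Mir29b-1 reached 1.8 and 0.8 (-0.79). Mir34a, a p53-linked microRNA, reached 1.6 and 1.4 (0.19). No transcript was named for Mir155 in either library, so the locus of that inflammatory microRNA has no value here.

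A list of 28 microRNAs linked to alternative polarization had 9 genes with values in both libraries. Mir511 and Mir99a were higher and Mirlet7c-1 lower, with a median of 0.38, where 8.06% of all genes were higher and 8.62% lower. Mir378 reached 0.8 and 0.9 (0.55), from an intronic segment on chromosome 9, 12521 bp and 12567 bp from the named start. That start was not placed at a RefSeq hairpin, so the value cannot be assigned to the locus of the miR-378 hairpin. Mir33, in an intron of the sterol regulator Srebf2, reached 0.5 and 0.2 (-0.94), and Mirlet7c-2 0.6 and 0.3 (-0.62). Mir193b and Mir124a-3 had the same score in both libraries, 0.3 and 0.2 respectively, and Mir182 had 0.4 and 0.3 (-0.04). No mature strand was matched for Mir124a-3, so its value, like those of Mir15a, Mir30b and Mir125b-2, is by name only.

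A list of 27 members of polycistronic clusters and proliferation-linked microRNAs had 7 genes with both values, with a median of -0.21. None was past 2-fold in either direction, where 8.06% of all genes were higher and 8.62% lower. Mirlet7i reached 1.5 and 1.3 (0.17), Mirlet7a-1 0.8 and 0.5 (-0.30), Mir16-1 0.6 and 0.4 (-0.21) and Mir15a 0.5 and 0.3 (-0.36). Mirlet7f-2 and Mir98, both in the ubiquitin ligase gene Huwe1, had 0.5 in both libraries and 0.5 and 0.4. Of the 8 genes with the let-7 seed, 6 had a ratio, between -1.28 and 0.38, of which only Mirlet7c-1 was past 2-fold.

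The genes that process microRNAs, which are not microRNA loci themselves, were read the same way. Of 23, 20 had both values, with a median of 0.13, 4 higher and 3 lower. Among all genes, 8.06% were higher and 8.62% lower, and no test was possible on so few genes. The Drosha and Dgcr8 genes of the nuclear step had 0.2 in both libraries and 0.3 and 0.2 (-0.21), and Dicer1 0.2 and 0.3 (0.96). The Dicer partners Tarbp2 (0.3 and 0.5, 1.12) and Prkra (0.1 and 0.2, 1.38) were higher. So were the helicase gene Ddx5 (1.3 and 2.0, 1.00) and Zc3h12a (0.4 and 0.9, 1.55), which encodes an RNase known to cut some precursors. Of these 4, only Zc3h12a kept its call over the whole rounding range. The Argonaute gene Ago1 reached 0.8 and 0.2 (-1.62), while Ago2 had 0.7 and 0.5 (-0.11). Tnrc6a (7.5 and 2.7, -1.10) and Tnrc6b (1.2 and 0.4, -1.21), whose proteins bind Argonaute in silencing, were lower. The rounding range of Tnrc6b reached -0.98, inside the threshold.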

How the data were processed

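Run-on RNA of both conditions was sequenced as 1 library each. Per the submitters' processing notes, BWA 0.7.10, SAMtools 0.1.19 and HOMER 4.2 were used. Reads were aligned to mm10 (GRCm38), blacklisted regions were removed, and transcripts were called per library and annotated. The authors deposited a score per transcript, rounded to 1 decimal, with no stated scaling to depth, and no read counts were used here. The score is no count, so no count model was fitted. Only the size of the deposited distance to the TSS was used.

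Groups came from the treatment label. Python 3.11.15, pandas 2.3.3 and scipy 1.17.1 computed gene values, centred ratios and Wilson intervals. The calculation was tested on simulated data, made from genes with high control scores and with changes larger than the threshold. Low scores, where rounding matters most, were not simulated. Members were matched to RefSeq hairpins by Entrez ID and to hosts in GENCODE M21. The members and lists were chosen with earlier results of these data known. Genes named were the 8 largest ratios each way among members that reached the median gene value in either library, the 5 highest scores per library, the 5 highest found in 1 library only, list members and loci overlapped at the hairpin. Further calls, and overlapping transcripts, were added after seeing the data. The gene that was higher over its hairpin is not reported here by name. Alternatives were other gene values, no centring, and limits on distance, repeats, overlap and score.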

Additional observations from a re-analysis of the deposited data

How the results depend on the processing

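The number of microRNA genes at least 2-fold higher, 13 as reported, was 30 with scores summed per gene (18.4%, 13.6% of all genes), 30 with score times length summed (18.4%, 17.2%), 7 with transcripts within 10 kb of the named start only (5.93%, 8.52%), and 8 with overlapping transcripts only (7.84%, 7.60%), an alternative chosen after seeing the data. The number at least 2-fold lower, 19 as reported, was 58 by the transcript nearest the named start (27.7% of all genes against 35.6% of the microRNA genes), 48 without centring (24.3% against 29.4%), 7 with overlapping transcripts only (6.30% against 6.86%), and 10 with ties counted there (6.63% against 8.40%), also chosen after seeing the data. Within 10 kb and with overlapping transcripts only, fewer genes were compared, 118 and 102. The median ratio, -0.04 as reported, was -0.32 by the nearest transcript and -0.41 without centring, where the median of all genes was -0.38. With repeats left out the intron shares were 51.6% and 54.1% and the shares within 10 kb 47.5% and 43.2%. By the nearest transcript 4 of the named genes reversed: Mir362 (-1.58), Mir99a (-2.0), Mir103-2 (1.0) and Mir30b (1.58). At Mir362 and Mir99a the nearest transcripts of the libraries were different segments. Mir5129 reversed with scores summed (0.0242) and with score times length summed (0.0455). The nearest transcript gave a ratio of 0 for Mir1901, Mir532, Mir340, Mir325 and Mir140. The causes were not tested. No paired analysis was possible because each group had 1 library. Scores near 0.1 limit the ratios of low loci to wide rounding ranges, and without read depth no floor can be given for loci with no transcript.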
